A study of Mus musculus with 13 samples.

Results

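The genes described here encode the transferases of phase II metabolism in mouse liver: UDP-glucuronosyltransferases (UGT), cytosolic sulfotransferases (SULT) and soluble glutathione transferases (GST). Members were the protein-coding genes of the count table whose symbols begin with Ugt1, Ugt2 or Ugt3, with Sult and a digit, or with Gsta, Gstm, Gstp, Gstt, Gstk or Gsto and a digit, and that had at least 130 counts summed over all 13 libraries. Of 63 such genes 44 reached that total and 19 did not, in a table of 54532 genes. Just inside the threshold were Sult1e1 with 205 counts, Ugt1a10 with 236, Sult2a7 with 247 and Ugt1a7c with 278, and just outside it was Gsto2 with 41. The 44 members comprised 7 UGT1, 10 UGT2 and UGT3, 8 SULT, 4 GSTA, 7 GSTM, 3 GSTP, 3 GSTT, 1 GSTK and 1 GSTO genes. All 44 passed the filter on low counts, and 39 had at least 10 counts in every library. The members were thus chosen by gene name and by their counts summed over all groups, not by a difference between groups. A gene with few counts in some groups could still reach the threshold through the groups in which it was high. This held for Sult1e1, with 95 of its counts in pretreated and 87 in dmPGE2 libraries. It also held for Ugt1a7c, with 194 of its counts in GalN/LPS libraries.

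UGT enzymes sit in the endoplasmic reticulum membrane and join glucuronic acid from UDP-glucuronate to bilirubin, bile acids, steroids and drugs. SULT enzymes transfer sulfonate from PAPS (the activated form of sulfate), and GST enzymes join glutathione to electrophiles, so that products become water-soluble and can be exported. The liver is the main site of all of these reactions. D-galactosamine (GalN) is taken up by hepatocytes and ties up their uridine nucleotides, which are also the source of UDP-glucuronate, and it sensitises the liver to lipopolysaccharide (LPS).

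Whole livers of wild-type C57 BL6 mice aged 8 weeks were profiled by mRNA sequencing in 4 groups. Pretreated livers (n = 4) came from mice given dmPGE2, a dimethylated analogue of prostaglandin E2, at 300 µg/kg by intraperitoneal injection 1 h before GalN at 500 mg/kg and LPS at 5 µg/kg. GalN/LPS livers (n = 3) came from mice given the same GalN and LPS doses without dmPGE2, dmPGE2 livers (n = 3) from mice given dmPGE2 alone, and saline livers (n = 3) from control mice. Livers were taken 6 h after GalN/LPS, and the titles of all 4 groups carry 6 h. For dmPGE2 alone and saline the labels do not say from which injection the 6 h were counted. The series text also uses the abbreviation AILI for these mice, without spelling it out, while every sample label gives GalN/LPS, dmPGE2 or saline, and the labels were followed. No label tells if libraries come from different mice, so p-values measure the spread between libraries, which may be partly technical.

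Libraries held 14829838 to 20777809 counts. The TMM factors, which scale libraries so that most genes stay level between them, were 0.683 to 0.830 in pretreated, 0.904 to 1.14 in GalN/LPS, 1.16 to 1.28 in dmPGE2 and 1.17 to 1.18 in saline libraries, so the scaling itself differed between groups. Levels below are TMM-scaled CPM, and counts of called genes are also given with plain library totals ("totals"). The 12 hepatocyte markers summed to 165125 to 244600 CPM in pretreated, 103307 to 147460 in GalN/LPS, 82951 to 97694 in dmPGE2 and 102076 to 125418 in saline libraries, and none was at 0. The 10 neutrophil markers summed to 265 to 419 CPM in pretreated, 682 to 905 in GalN/LPS, 5.57 to 8.996 in dmPGE2 and 4.48 to 16.96 in saline libraries, with Ly6g at 0 in all dmPGE2 libraries. In whole liver, fewer cells of a type and less RNA per cell cannot be told apart.

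By deposited FPKM, the mRNAs of the conjugating enzymes were present at very unequal levels. The FPKM follow the gene length of the count table, which can exceed that of the transcript. For Gsta3 it was 4344 bases against 1457 for its longest coding transcript, and for Sult2a8 3284 against 2143. For Ugt2b5 both were 1858. FPKM of genes such as Gsta3 are thus low for their transcript length, and the order of genes below holds for the deposited values only. In saline livers Gstp1, a pi-class transferase, stood highest at 1922 ± 259.6 FPKM (SD, n = 3), followed by the mu-class gene Gstm1 at 851 ± 98.96 and by Ugt2b5, the leading UGT, at 487 ± 143. Next came Ugt2b36 at 263 ± 53.2, Ugt2b1 at 253 ± 28.5 and Gsta3 at 201 ± 12.9 FPKM, with the first 2 of these within 1 SD of each other. Sult2a8, a bile acid sulfotransferase of mouse liver, led the SULT genes at 191 ± 44.1 FPKM. The bilirubin-conjugating gene Ugt1a1 led its family at 16.4 ± 7.43 FPKM, and the lowest member was Ugt1a7c at 0.0304 ± 0.0120 FPKM. Summed over all 44 genes, FPKM came to 8814 ± 1411 in pretreated livers (SD, n = 4), 5264 ± 781 in GalN/LPS, 4243 ± 550.03 in dmPGE2 and 5281 ± 618 in saline livers (SD, n = 3 each). The 4 pretreated sums, from 7084 to 10540.1, all lay above the highest sum of the other groups, 6112 in GalN/LPS replicate 2. As a share of all counts, which uses no scaling factor, the members took 1.06% to 1.36% in pretreated, 0.828% to 1.09% in GalN/LPS, 0.750% to 0.979% in dmPGE2 and 0.936% to 1.13% in saline libraries, and there the pretreated and GalN/LPS ranges overlapped.

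**Figure D1:**
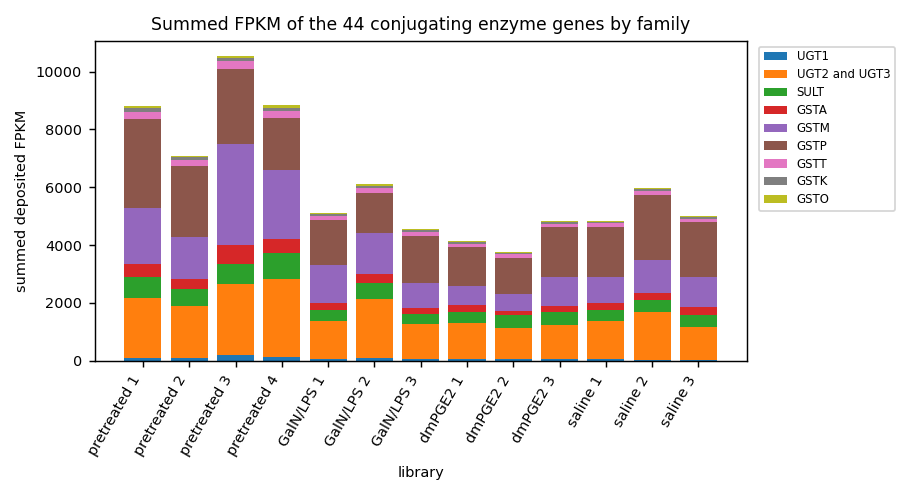
Deposited FPKM (y axis) summed over the 44 conjugating enzyme genes in each of the 13 libraries (x axis), with families stacked in colour. The 4 pretreated libraries sum to 7084 to 10540.1 FPKM, above every other library.

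Conjugating enzyme mRNAs were higher in pretreated than in GalN/LPS livers in most families, while most of them did not pass the test between GalN/LPS and saline livers. Of the 44 members, 32 rose and 1 fell in pretreated relative to GalN/LPS livers by edgeR's quasi-likelihood test with Benjamini-Hochberg adjustment over 14280 genes (adjusted p under 0.05). Over all genes tested, 24.4% rose and 30.1% fell in that comparison, 54.5% in either direction. The median log2 fold change was 0.83 over the members and -0.10 over all genes, and 43 of the 44 members lay above the median of all genes. In 24 members every pretreated library was above every GalN/LPS library, which held for 22.7% of all genes, and in 0 members every one was below, which held for 27.7% of all genes. The 12 hepatocyte markers gave a median of 0.77, with 9 higher and 0 lower, and the part of hepatocyte content in the result was not tested.

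The number of calls depended on how libraries were scaled. With plain library totals, 14 members rose and 1 fell in pretreated relative to GalN/LPS livers, against 4.31% of all genes higher and 47.6% lower, and the median of all genes was -0.61. The member median was then 0.33, and 43 of 44 members were again above the median of all genes. The 14 that rose with both scalings were Sult1e1, Sult1d1, Sult1a1, Sult1b1, Ugt1a5, Ugt1a6b, Ugt2b34, Gsta3, Gstm2, Gstm3, Gstm4, Gstm7, Gstp3 and Gstt3. Ugt1a7c fell with both. Among the 39 members with at least 10 counts in every library, 30 rose and 0 fell with TMM.

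**Figure D2:**
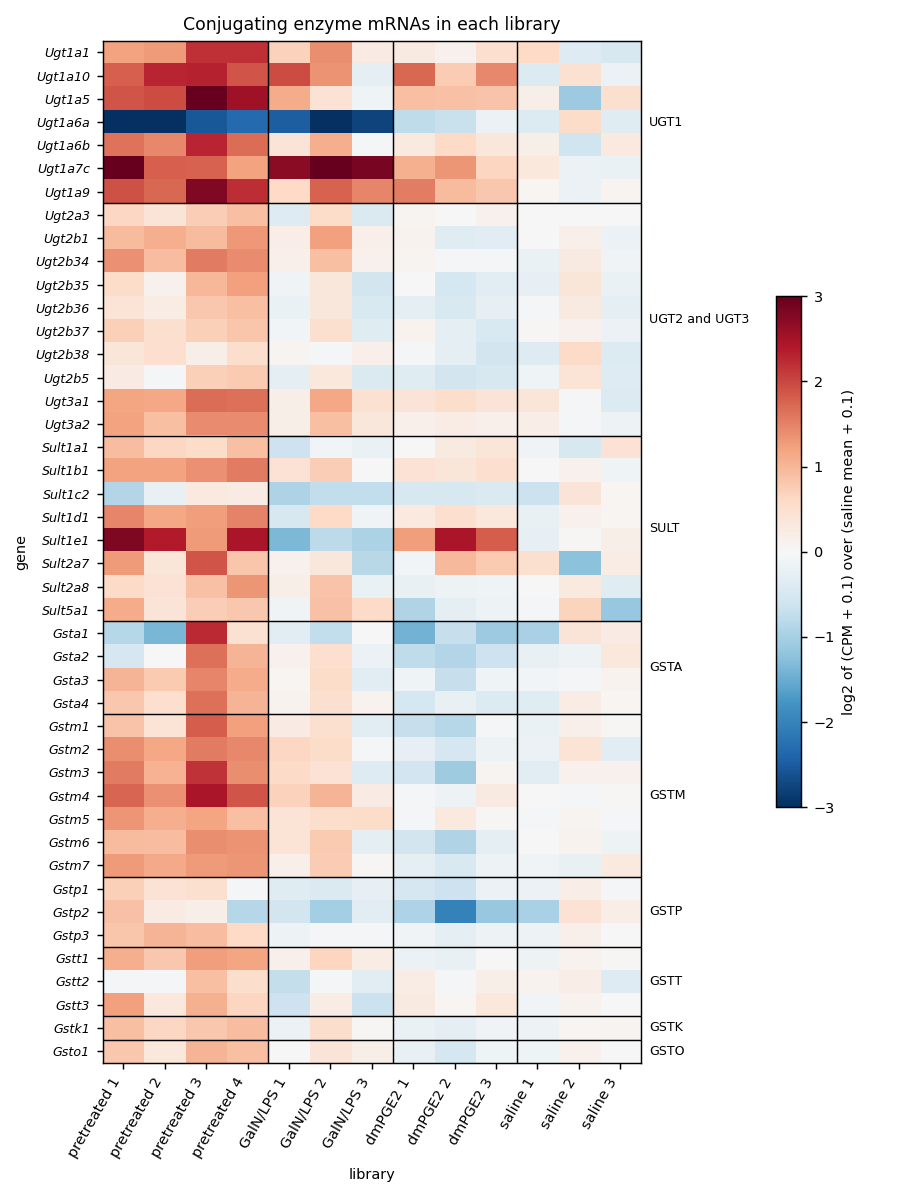
Each of the 44 genes (rows, by family) in each of the 13 libraries (columns), as log2 of CPM plus 0.1 over the saline mean plus 0.1. Pretreated columns are mostly red, Ugt1a6a is blue in all pretreated and GalN/LPS libraries, and Ugt1a7c is red in all 3 GalN/LPS libraries.

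Between GalN/LPS and saline livers, 10 members rose and 2 fell, against 27.4% of all genes higher and 25.6% lower. In total 52.9% of all genes were called in either direction in that comparison, against 12 of 44 members. In 6 members every GalN/LPS library was above every saline library and in 4 every one was below, where 30.3% and 29.5% of all genes did so. The member median was 0.19 against 0.02 over all genes. With library totals 2 members rose and 4 fell, against 21.5% and 30% of all genes, and the calls that held with both scalings were Ugt1a7c and Ugt1a9 higher and Ugt1a6a and Sult1c2 lower. The hepatocyte markers had 0 higher and 2 lower of 12. Without GalN/LPS replicate 2, 3 members rose, and without GalN/LPS replicate 3 the number was 15, while 3553 and 3669 of all genes rose.

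Pretreated livers were also above saline livers for most members: 35 rose and 1, Ugt1a6a, fell, where 34.8% of all genes rose and 30.2% fell, 65% in either direction. In 31 members every pretreated library was above every saline library and in 1 every one was below, where 32.6% and 29.2% of all genes did so. The member median was 1.09 against 0.14 over all genes. With totals 19 rose and 2 fell, against 11.8% and 47.6% of all genes, and Sult1c2 joined Ugt1a6a among the genes that fell (-0.76, adjusted p = 0.0469). Ugt2b36 and Ugt2a3, called higher with TMM, stood at -0.08, adjusted p = 0.69 and -0.01, adjusted p = 0.938 with totals. Ugt2b36 also missed the threshold without pretreated replicate 4 or saline replicate 1 or 3 (0.48 to 0.60, adjusted p = 0.0519 to 0.088). Of the 12 hepatocyte markers 10 rose and 0 fell in this comparison, with a median of 0.73. They summed to 165125 to 244600 CPM in pretreated and 102076 to 125418 CPM in saline libraries, and their part in the result was not tested.

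**Figure D3:**
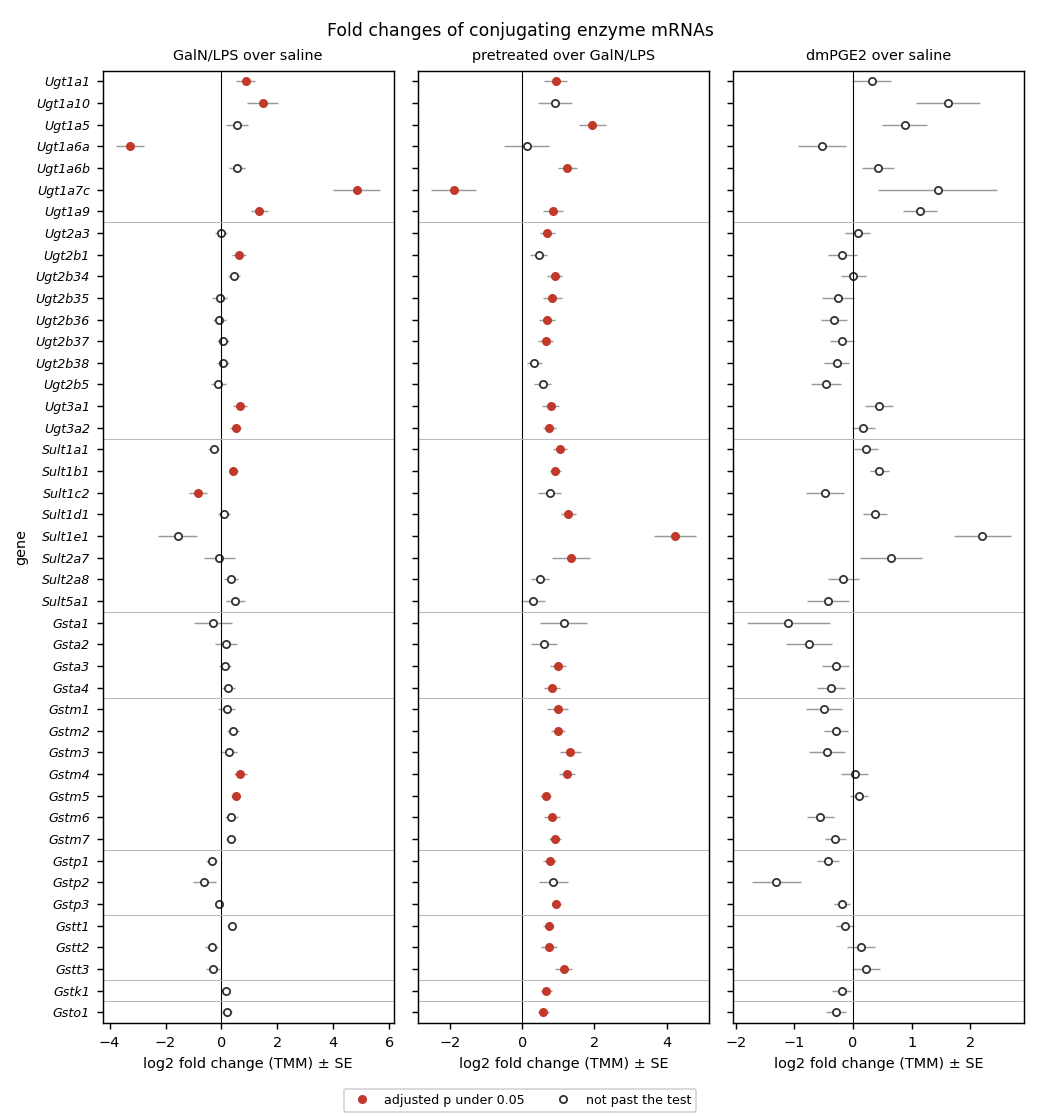
Log2 fold change with its standard error (x axis) of each gene (y axis) for GalN/LPS over saline, pretreated over GalN/LPS and dmPGE2 over saline livers, TMM scaling, with filled points for adjusted p under 0.05. In the middle panel 32 genes are filled on the right and Ugt1a7c on the left, and in the right panel none is filled.

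**Figure D4:**
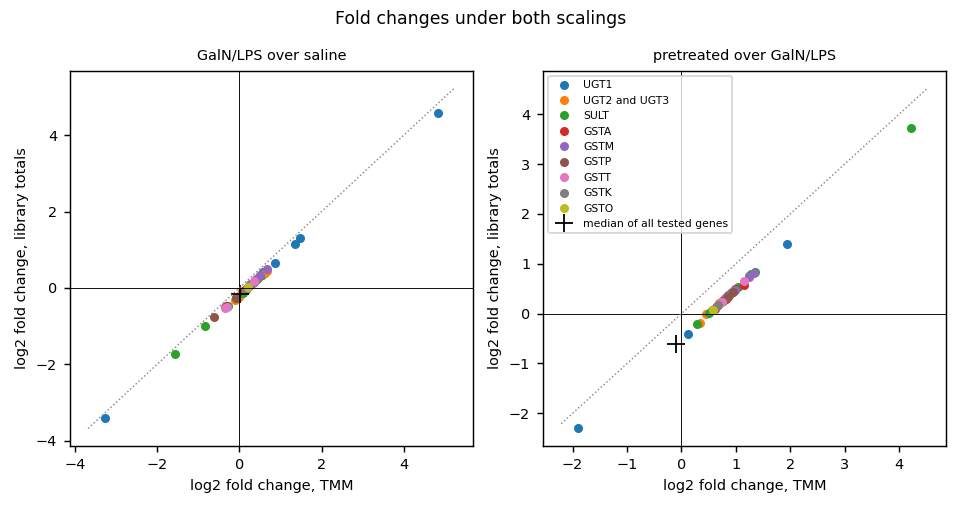
Log2 fold change of each member with TMM scaling (x axis) against that with plain library totals (y axis), coloured by family, for GalN/LPS over saline and pretreated over GalN/LPS livers. The cross marks the median of all tested genes, which in the second panel is -0.10 with TMM and -0.61 with totals.

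The 7 UGT1 genes are alternative first exons of one locus on chromosome 1 (build GRCm38, chr1:88055388-88220002, plus strand), each with its own promoter and all joined to the same last exons. Promoters of 4 of them are shown because genes of this one locus moved in opposite directions. Each sequence runs from 250 bases before to 50 bases after the RefSeq start (GRCm38.p6), and capitals mark the xenobiotic response element core GCGTG, read on either strand. Gsta3, from elsewhere on chromosome 1, is given with them because its window holds the core of the antioxidant response element, TGACNNNGC, likewise in capitals.
Ugt1a9 (chr1:88070529-88070828): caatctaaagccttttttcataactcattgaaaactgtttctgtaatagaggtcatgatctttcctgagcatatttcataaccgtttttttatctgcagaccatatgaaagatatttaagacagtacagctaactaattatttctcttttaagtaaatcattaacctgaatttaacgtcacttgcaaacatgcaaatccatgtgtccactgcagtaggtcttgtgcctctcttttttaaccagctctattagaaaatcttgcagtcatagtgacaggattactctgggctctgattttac
Ugt1a6a (chr1:88134559-88134858): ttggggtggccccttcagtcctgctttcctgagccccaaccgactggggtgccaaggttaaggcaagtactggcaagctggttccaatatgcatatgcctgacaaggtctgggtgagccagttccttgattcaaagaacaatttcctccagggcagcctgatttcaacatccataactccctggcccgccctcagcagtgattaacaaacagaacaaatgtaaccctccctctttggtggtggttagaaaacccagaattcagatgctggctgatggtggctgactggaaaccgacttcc
Ugt1a5 (chr1:88165762-88166061): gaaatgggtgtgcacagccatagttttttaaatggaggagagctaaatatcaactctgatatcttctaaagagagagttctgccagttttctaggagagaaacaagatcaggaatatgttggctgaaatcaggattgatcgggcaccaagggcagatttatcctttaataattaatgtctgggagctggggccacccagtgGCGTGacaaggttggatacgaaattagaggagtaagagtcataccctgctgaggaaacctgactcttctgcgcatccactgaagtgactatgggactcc
Ugt1a1 (chr1:88211709-88212008): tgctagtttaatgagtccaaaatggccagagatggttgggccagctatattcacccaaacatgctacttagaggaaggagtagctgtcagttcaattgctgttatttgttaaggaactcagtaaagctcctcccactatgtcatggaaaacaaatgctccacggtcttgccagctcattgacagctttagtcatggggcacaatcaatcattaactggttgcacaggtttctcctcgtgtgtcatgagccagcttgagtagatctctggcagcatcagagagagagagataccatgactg
Gsta3 (chr1:21240335-21240634): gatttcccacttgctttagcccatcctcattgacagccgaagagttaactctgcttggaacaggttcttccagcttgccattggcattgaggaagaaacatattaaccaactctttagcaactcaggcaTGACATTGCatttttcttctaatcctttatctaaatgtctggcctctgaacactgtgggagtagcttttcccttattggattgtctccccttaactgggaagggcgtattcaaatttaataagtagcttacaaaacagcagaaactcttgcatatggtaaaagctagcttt
Among the 4 UGT1 windows shown, GCGTG was in that of Ugt1a5 alone, with its first base at -49 from the start, and TGACNNNGC was in none of them. Of 39 members with a RefSeq promoter, 3 held TGACNNNGC (Gsta3, Gstm7 and Gstm5; 7.69%) against 14.0% of 27025 genes, 9 held GCGTG (23.1%) against 35.2%, 7 the TATA box TATAAA (17.9%) against 15.7%, and 20 the NF-kB motif, GGG and CC separated by 5 bases (51.3%) against 53.5%. Neither the HNF4 direct repeat, 2 copies of AGGTCA separated by 1 base (0.0481% of all genes), nor TTGCGCAA of C/EBP (0.207% of all genes) was found in a member window. Both strands were searched for each motif. These are matches of letters within the windows only.

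Within the UGT1 locus 6 genes rose and 1 fell in pretreated relative to saline livers, with either scaling. Ugt1a9, which conjugates phenols, measured 58.4, 51.4, 108 and 71.98 CPM in pretreated livers, 23.6, 53.1 and 43.1 in GalN/LPS, 45.5, 30.3 and 27.2 in dmPGE2 and 16.3, 13.8 and 16.5 in saline livers. Every library of the 3 treated groups was above every saline library. In GalN/LPS relative to saline livers Ugt1a9 rose by 1.36 ± 0.30 (log2 fold change ± SE, adjusted p = 0.00111 by edgeR), and in pretreated relative to saline livers it rose by 2.22 ± 0.29 (adjusted p = 7.98e-06). The difference between pretreated and GalN/LPS livers, 0.86 ± 0.27 (adjusted p = 0.0153), missed the threshold with totals (0.36, adjusted p = 0.237) and without pretreated replicate 3 or GalN/LPS replicate 1 (0.59 to 0.60, adjusted p = 0.0574 to 0.0805).

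Ugt1a5 was at 24.4, 25.5, 60.2 and 38.6 CPM in pretreated livers and 14.2, 8.76 and 5.94 in GalN/LPS livers, against 7.38, 2.99 and 9.08 in saline livers. The pretreated libraries were all above those of both other groups. It rose by 1.94 ± 0.37 in pretreated relative to GalN/LPS livers (adjusted p = 0.000607 by edgeR; 1.40, adjusted p = 0.00526 with totals). Ugt1a6b, a phenol-conjugating form, was at 57.95, 50.8, 90.7 and 60.1 CPM in pretreated against 24.4, 39.9 and 18.2 in GalN/LPS livers, without overlap, and rose by 1.24 ± 0.26 (adjusted p = 0.00128). Ugt1a1 had 83.7, 86.8, 164 and 164 CPM in pretreated, 58.4, 94.99 and 42.97 in GalN/LPS and 54.6, 27.5 and 25.8 in saline livers. The GalN/LPS range overlapped both others, and the pretreated and saline ranges did not overlap. In pretreated relative to GalN/LPS livers Ugt1a1 rose by 0.93 ± 0.32 (adjusted p = 0.0215), and in GalN/LPS relative to saline livers it rose by 0.86 ± 0.33 (adjusted p = 0.0401). With totals neither difference passed (0.44, adjusted p = 0.215, and 0.65, adjusted p = 0.085), and each also missed the threshold when 1 library was left out. This held for the first without pretreated replicate 3 or 4 or GalN/LPS replicate 1 or 3 (0.70 to 0.85, adjusted p = 0.0623 to 0.106) and for the second without GalN/LPS replicate 1 or 2 or saline replicate 2 or 3 (0.49 to 0.94, adjusted p = 0.0509 to 0.245). Without saline replicate 1 the second was 1.29, adjusted p = 0.00573. In pretreated relative to saline livers Ugt1a1 rose by 1.79 ± 0.33 (adjusted p = 0.000186), and with totals the value was 1.09, adjusted p = 0.00421.

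Ugt1a6a and Ugt1a7c moved in opposite directions in GalN/LPS livers. Both, like Ugt1a10 and Sult1e1, are below the mean of 5 CPM set for named genes, and these 4 and Gsta1 were chosen after their values were seen. Sult1c2, with group means of 1.51 to 2.71 CPM, is below that level too and was not named by that rule. Ugt1a6a measured 0.318, 0.137, 0.500 and 0.592 CPM in pretreated and 0.531, 0.0630 and 0.410 in GalN/LPS livers, against 2.52, 5.03 and 2.64 in saline livers, and the saline libraries were all above the other 7. It fell by 3.27 ± 0.51 in GalN/LPS relative to saline livers (adjusted p = 5.41e-05, edgeR) and fell by 3.15 ± 0.48 in pretreated relative to saline livers (adjusted p = 3.29e-05). Between pretreated and GalN/LPS livers the difference was 0.12 ± 0.62 (adjusted p = 0.879). Ugt1a7c measured 2.30, 0.683, 0.667 and 0.423 CPM in pretreated and 1.38, 8.70 and 1.54 in GalN/LPS livers, against 0.183, 0.0996 and 0.0961 in saline livers, and every library of both treated groups was above the saline libraries. It rose by 4.84 ± 0.85 (adjusted p = 0.000179) in GalN/LPS relative to saline livers, and the value was 3.45, adjusted p = 0.000741 without GalN/LPS replicate 2. It fell by 1.90 ± 0.62 (adjusted p = 0.0177) in pretreated relative to GalN/LPS livers, and without that library the value was -0.51, adjusted p = 0.432. It also missed the threshold without pretreated replicate 4 (-1.66, adjusted p = 0.0503). Ugt1a7c reached the count threshold only through GalN/LPS libraries (194 of 278 counts), so its differences are not independent of how members were chosen.

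Reads of Ugt1a6a and Ugt1a7c cannot be fully told apart. Every 50-base window of the Ugt1a6a transcript recurs in a Ugt1a7c transcript (GENCODE), and the UGT1 genes share 58.2% (Ugt1a1) to 100% (Ugt1a6a) of their windows with other genes. Raw counts of Ugt1a7c alone were 26, 138 and 30 in GalN/LPS libraries, and those of Ugt1a6a 10, 1 and 8. Summed over both genes, raw counts were 33, 12, 14 and 12 in pretreated libraries, 36, 139 and 38 in GalN/LPS libraries, 62, 44 and 77 in dmPGE2 and 59, 103 and 57 in saline libraries. The GalN/LPS and saline sums overlapped, and all pretreated sums lay below the saline sums. Ugt1a6b, with 7561 counts in all against 408 for Ugt1a6a and 278 for Ugt1a7c, shares 80.7% of its windows with Ugt1a7c. Its values carry the same limit, and its part in the summed counts was not tested. As a share of all UGT1 counts, Ugt1a6a took 0.0629% to 0.176% in pretreated, 0.0305% to 0.428% in GalN/LPS, 1.52% to 2.53% in dmPGE2 and 2.47% to 8.09% in saline libraries. Ugt1a5 took 10.7% to 14.1% in pretreated, 4.24% to 11.5% in GalN/LPS, 9.53% to 10.5% in dmPGE2 and 4.80% to 11.8% in saline libraries.

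**Figure D5:**
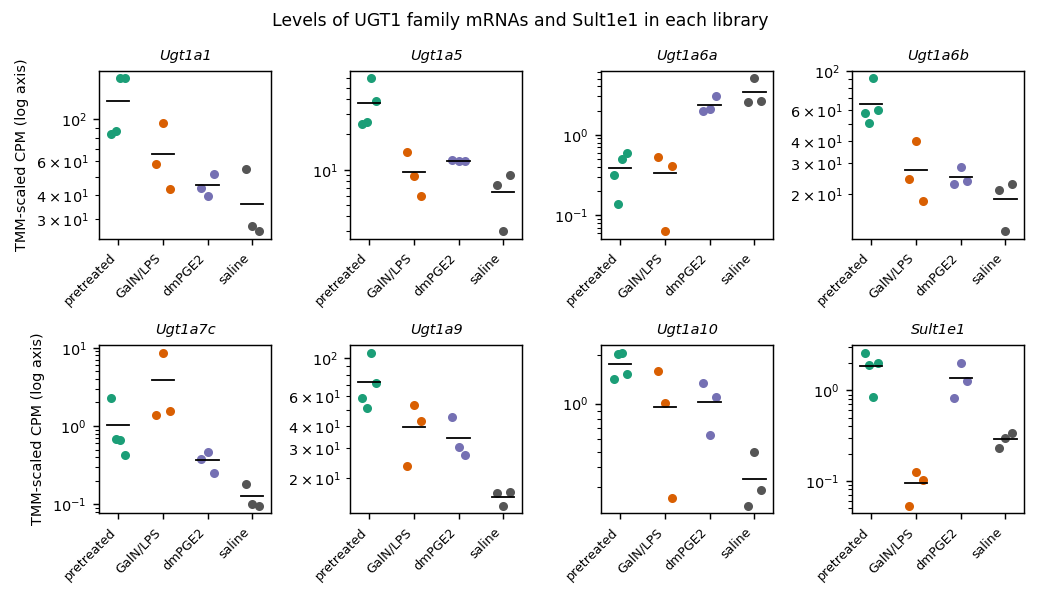
TMM-scaled CPM (log y axis) of the 7 UGT1 genes and Sult1e1 in each library, by group (x axis: pretreated, GalN/LPS, dmPGE2, saline), with a line at each group mean. Ugt1a6a is below 1 CPM in all 7 pretreated and GalN/LPS libraries, and Sult1e1 is below 0.2 CPM in the 3 GalN/LPS libraries only.

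The 10 UGT2 and UGT3 genes include the UGT2B enzymes of steroid and bile acid glucuronidation, 8 of which, counting Ugt2a3, lie with Sult1b1, Sult1d1 and Sult1e1 on chromosome 5 (chr5:86889767-87591594). In pretreated relative to GalN/LPS livers 7 of the 10 rose and 0 fell, with a median of 0.69 and values from 0.34 (Ugt2b38) to 0.89 (Ugt2b34). With totals 1 rose, Ugt2b34, and the median was 0.20. Ugt2b34 measured 847, 621, 972 and 871 CPM in pretreated livers, 364, 612 and 361 in GalN/LPS and 287, 393 and 303 in saline livers. The lowest pretreated library stood just above GalN/LPS replicate 2. Ugt2b34 rose by 0.89 ± 0.20 (adjusted p = 0.00201), and with totals the value was 0.40, adjusted p = 0.0388. Ugt2b5, the most abundant UGT mRNA, had 1052, 851, 1455 and 1545 CPM in pretreated livers, 726, 1101 and 655 in GalN/LPS and 811, 1176 and 682 in saline livers. The 3 ranges overlapped, and neither the difference of 0.57 ± 0.24 (adjusted p = 0.0556) in pretreated relative to GalN/LPS livers nor that of -0.11 ± 0.25 (adjusted p = 0.752) in GalN/LPS relative to saline livers passed. Ugt2b5 shares 41.7% of its windows with other genes, mostly Ugt2b38.

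In GalN/LPS relative to saline livers 3 of these 10 genes rose with TMM and 0 with totals: Ugt2b1 (0.62 ± 0.25, adjusted p = 0.0441), Ugt3a2 (0.51 ± 0.19, adjusted p = 0.0339) and Ugt3a1. Without GalN/LPS replicate 2 the values were 0.18, adjusted p = 0.417 for Ugt2b1 and 0.26, adjusted p = 0.205 for Ugt3a2. Ugt2b1 also missed the threshold without pretreated replicate 2 or 3, dmPGE2 replicate 2 or 3 or saline replicate 1, 2 or 3 (0.55 to 0.70, adjusted p = 0.0502 to 0.126), and Ugt3a2 without saline replicate 2 or 3 (0.44 to 0.48, adjusted p = 0.0886 to 0.112). Ugt3a1, whose human counterpart uses UDP-N-acetylglucosamine in place of UDP-glucuronate, had 82.3, 80.8, 116 and 113 CPM in pretreated and 40.2, 80.9 and 49.5 in GalN/LPS livers, against 46.4, 34.5 and 26.9 in saline livers. GalN/LPS and saline libraries overlapped, and every pretreated library was above every saline library. The rise of 0.66 ± 0.24 (adjusted p = 0.0284) in GalN/LPS livers missed the threshold without GalN/LPS replicate 2 (0.32, adjusted p = 0.229), without saline replicate 2 or 3 (0.49 to 0.63, adjusted p = 0.0737 to 0.124) and with totals (0.45, adjusted p = 0.0705). Ugt3a1 rose by 1.45 ± 0.23 (adjusted p = 5.38e-05) in pretreated relative to saline livers, and with totals the value was 0.75, adjusted p = 0.00278.

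Of the 8 SULT genes, 5 rose in pretreated relative to GalN/LPS livers and 0 fell, and 4 rose with totals too. Sult1e1, the estrogen sulfotransferase, had the largest log2 fold change of the 44 members in that comparison, at 2.62, 1.91, 0.834 and 2.03 CPM in pretreated and 0.0531, 0.126 and 0.102 in GalN/LPS livers. It was at 0.825, 2.03 and 1.27 CPM in dmPGE2 and 0.229, 0.299 and 0.336 CPM in saline livers. All GalN/LPS libraries were below the saline libraries, and all pretreated and dmPGE2 libraries were above them. It rose by 4.23 ± 0.58 in pretreated relative to GalN/LPS livers (adjusted p = 5.72e-05 by edgeR) and rose by 2.66 ± 0.47 relative to saline livers (adjusted p = 0.000152). The differences of -1.57 ± 0.71 (adjusted p = 0.0741) in GalN/LPS and 2.21 ± 0.49 (adjusted p = 0.0832) in dmPGE2 livers, each relative to saline, did not pass. The gene had 205 counts in all, so these values rest on few reads. It reached the count threshold only through pretreated (95 counts) and dmPGE2 (87 counts) libraries. Its differences are therefore not independent of how members were chosen.

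Sult1d1, which sulfonates catecholamines in mouse, had 304, 246, 262 and 306 CPM in pretreated livers, 78.5, 166 and 102 in GalN/LPS, 133, 156 and 136 in dmPGE2 and 93.2, 120.02 and 114 in saline livers. The pretreated libraries were above all others. It rose by 1.28 ± 0.20 (adjusted p = 0.00017) relative to GalN/LPS livers, and with totals the value was 0.80, adjusted p = 0.000496. Sult1a1, a phenol sulfotransferase, had 435, 354, 337 and 432 CPM in pretreated against 150.01, 216 and 201 in GalN/LPS livers, without overlap, and rose by 1.04 ± 0.20 (adjusted p = 0.000607). Sult1b1, known for thyroid hormone sulfonation, had 53.2, 53.2, 59.5 and 68.7 CPM in pretreated, 31.1, 38.7 and 23.3 in GalN/LPS and 22.9, 25.1 and 21.2 in saline livers, and rose by 0.92 ± 0.16 (adjusted p = 0.000246) in pretreated relative to GalN/LPS livers. Its pretreated libraries were above those of both other groups. Sult2a8, the most abundant SULT mRNA, had 910.3, 834, 1139.5 and 1532 CPM in pretreated, 698, 1111 and 537 in GalN/LPS and 613, 756 and 478 in saline livers. The pretreated and GalN/LPS ranges overlapped (0.50 ± 0.25, adjusted p = 0.0999). Sult1c2, at 1.38 to 1.59 CPM in GalN/LPS and 1.70 to 3.59 in saline livers, fell by 0.83 ± 0.33 (adjusted p = 0.0452), a call that was lost without pretreated replicate 2, GalN/LPS replicate 1, 2 or 3, dmPGE2 replicate 1, 2 or 3 or saline replicate 2 or 3 (-0.86 to -0.58, adjusted p = 0.051 to 0.199).

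All 7 GSTM genes, the mu-class cluster on chromosome 3 (chr3:107895821-108044894), rose in pretreated relative to GalN/LPS livers, 4 of them with totals too. Relative to saline livers all 7 rose with TMM and 6 with totals, and in all 7 every pretreated library was above every saline library. Gstm1 measured 2218, 1638, 4328 and 2895 CPM in pretreated, 1475, 1732 and 996 in GalN/LPS, 759, 682 and 1179 in dmPGE2 and 1082, 1365 and 1254 in saline livers. Pretreated replicate 3 was the highest, and the lowest pretreated library was below GalN/LPS replicate 2. Gstm1 rose by 0.98 ± 0.29 (adjusted p = 0.0108) in pretreated relative to GalN/LPS livers, which missed the threshold with totals (0.47, adjusted p = 0.146) and without GalN/LPS replicate 3 (0.79, adjusted p = 0.0588). Gstm3 had 203, 142, 310.2 and 180.00 CPM in pretreated and 103, 92.7 and 52.9 in GalN/LPS livers, against 55.2, 75.8 and 75.6 in saline livers. Its pretreated libraries were above those of both other groups. It rose by 1.34 ± 0.30 (adjusted p = 0.00169) in pretreated relative to GalN/LPS livers, and with totals the value was 0.81, adjusted p = 0.0269.

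Gstm4 and Gstm5 were the 2 GSTM genes that rose with TMM in GalN/LPS relative to saline livers as well. Gstm4 had 124, 95.9, 202 and 136 CPM in pretreated, 59.5, 74.7 and 43.7 in GalN/LPS and 36.9, 36.4 and 37.8 in saline livers. The 3 ranges did not overlap. In GalN/LPS relative to saline livers Gstm4 rose by 0.68 ± 0.23 (adjusted p = 0.0209), with totals 0.49, adjusted p = 0.0563, and it missed the threshold without GalN/LPS replicate 2 or saline replicate 1 or 2 (0.48 to 0.68, adjusted p = 0.0527 to 0.114). In pretreated relative to GalN/LPS livers it rose by 1.24 ± 0.22 (adjusted p = 0.00037), with totals 0.73, adjusted p = 0.00509. Its share of all GSTM counts, a measure free of the scaling, was 3.69% to 4.22% in pretreated, 3.14% to 3.44% in GalN/LPS, 3.03% to 3.81% in dmPGE2 and 2.16% to 2.72% in saline libraries. Gstm1 held 72.1% to 80.9% of GSTM counts in pretreated, 77.9% to 78.4% in GalN/LPS, 76.8% to 80.6% in dmPGE2 and 79.7% to 81.04% in saline libraries. Gstm1 shares 23.1% and Gstm3 28.8% of its 50-base windows with other genes, and Gstm4 shares none.

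In the alpha class, Gsta3, which detoxifies aflatoxin epoxide in mouse, measured 1752, 1485, 2373 and 1855 CPM in pretreated, 890.4, 1250.5 and 685 in GalN/LPS, 793, 529.9 and 783 in dmPGE2 and 809, 844 and 927 in saline livers. The pretreated libraries lay above all others. Gsta3 rose by 0.99 ± 0.22 (adjusted p = 0.00166) in pretreated relative to GalN/LPS livers, and with totals the value was 0.49, adjusted p = 0.0348. Gsta4, specialised for aldehydes of lipid peroxidation, rose by 0.82 ± 0.22 (adjusted p = 0.0062), which missed the threshold with totals (0.30, adjusted p = 0.214). Gsta1 and Gsta2, which share 89.7% and 64.2% of their windows with other genes, did not pass. Gsta1 was at 1.51, 1.02, 13.6 and 3.89 CPM in pretreated livers, 2.23, 1.64 and 2.82 in GalN/LPS and 1.38, 3.69 and 3.31 in saline livers, with pretreated replicate 3 the highest.

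Gstp1, the most abundant member by FPKM in saline livers, had 2333, 1933, 1985 and 1381 CPM in pretreated, 1121, 1054 and 1201 in GalN/LPS, 1005, 935 and 1259 in dmPGE2 and 1265, 1638 and 1394 in saline livers. The GalN/LPS libraries were below all pretreated and all saline libraries, and the pretreated and saline ranges overlapped. Gstp1 rose by 0.76 ± 0.18 (adjusted p = 0.00284) in pretreated relative to GalN/LPS livers, with totals 0.25, adjusted p = 0.3. The difference in GalN/LPS relative to saline livers was -0.35 ± 0.19 (adjusted p = 0.14), and with totals it was -0.51 and just past the threshold (adjusted p = 0.04996). Gstp3 was at 22.8 to 30.9 CPM in pretreated and 13.6 to 14.7 in GalN/LPS livers, and rose by 0.94 ± 0.13 (adjusted p = 6.62e-05). Gstp2 shares 72.6% of its windows with other genes, mostly Gstp1, and did not pass (0.86 ± 0.39, adjusted p = 0.0756).

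The theta-class gene Gstt1, which acts on small halogenated compounds, had 364, 297, 404 and 385 CPM in pretreated, 189, 265 and 199 in GalN/LPS and 153, 181 and 175 in saline livers. The 3 ranges did not overlap. In pretreated relative to GalN/LPS livers Gstt1 rose by 0.73 ± 0.15 (adjusted p = 0.000979), with totals 0.23, adjusted p = 0.106, and relative to saline livers it rose by 1.10 ± 0.15 (adjusted p = 1.40e-05), with totals 0.41, adjusted p = 0.00664. Gstt3 rose by 1.15 ± 0.23 (adjusted p = 0.000904) in pretreated relative to GalN/LPS livers, with totals 0.66, adjusted p = 0.0136. The kappa-class gene Gstk1, of mitochondria and peroxisomes, rose by 0.66 ± 0.15 (adjusted p = 0.00225), and the omega-class gene Gsto1, which reduces dehydroascorbate, rose by 0.58 ± 0.16 (adjusted p = 0.00703). With totals neither passed (0.17, adjusted p = 0.247, and 0.07, adjusted p = 0.713).

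With dmPGE2 alone, 0 members rose and 0 fell relative to saline livers by edgeR, as did 0% of all genes in each direction. At an unadjusted p under 0.05 there were 8 members and 1990 genes in all, and DESeq2 called 1 member higher, Ugt1a9, with 137 of all genes higher and 150 lower. The member median was -0.18 against 0.02 over all genes. In 9 members every dmPGE2 library was above every saline library and in 5 every one was below, where 14.3% and 12% of all genes did so. The 9 included 5 of the 7 UGT1 genes, a family whose median log2 difference was 0.88. Ugt1a5, with 12.2, 11.96 and 11.8 CPM in dmPGE2 against 7.38, 2.99 and 9.08 in saline livers, differed by 0.88 ± 0.39 (adjusted p = 0.322), and Ugt1a9 by 1.14 ± 0.29 (adjusted p = 0.114), for which DESeq2 gave 1.14, adjusted p = 0.0115.

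For many members the log2 difference that went with dmPGE2 was more positive with GalN/LPS than without it. The interaction, the dmPGE2 difference with GalN/LPS minus that without, passed above 0 for 23 members and below 0 for 1, against 15.4% and 19.6% of all genes. The member median was 0.88 and that of all genes -0.11. With totals 4 members were above 0 (Gsta3, Gstm3, Gstm6 and Gstm7) and 1 below (Ugt1a7c), against 1.27% and 36.5% of all genes. The 23 included 6 of 7 GSTM and all 3 GSTP genes, and 0 of 7 UGT1 genes. Gstm3 had 46.5, 32.8 and 72.6 CPM in dmPGE2 against 55.2, 75.8 and 75.6 CPM in saline livers, which overlapped, beside the pretreated and GalN/LPS values given above, and its interaction was 1.78 ± 0.42 (adjusted p = 0.00656), with totals 1.17, adjusted p = 0.0371. Gstp2 had 2.47, 1.10 and 2.11 CPM in dmPGE2 against 2.38, 6.53 and 5.48 CPM in saline livers, and its interaction was 2.17 ± 0.58 (adjusted p = 0.0108), with totals 1.57, adjusted p = 0.0602. Of the 12 hepatocyte markers 8 were above 0 and 0 below, with a median of 1.15, and their part in these results was not tested. Without GalN/LPS replicate 1 the interaction passed above 0 for 14 members and for 1511 of all genes. Of the 24 calls 10 were lost when some single library was left out, among them Ugt1a7c without pretreated replicate 2, 3 or 4, GalN/LPS replicate 2, dmPGE2 replicate 1 or 2 or saline replicate 1, 2 or 3 (-3.70 to -1.96, adjusted p = 0.0546 to 0.0957), and the other 14 passed without any one of the 13.

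Genes listed around UDP-glucuronate supply, which include genes of uridine nucleotides, other UDP-sugars and carriers, were more often lower than higher in GalN/LPS livers. Of the 14 tested, 1 rose and 6 fell in GalN/LPS relative to saline livers, with a median of -0.18 (0 rose and 7 fell with totals), and 10 rose and 1 fell in pretreated relative to GalN/LPS livers, with a median of 0.60 (1 rose and 2 fell with totals). Over all genes tested 27.4% rose and 25.6% fell in the first of these comparisons (21.5% and 30% with totals), with a median of 0.02, and 24.4% rose and 30.1% fell in the second (4.31% and 47.6% with totals), with a median of -0.10. The same shares apply to the other pathway lists. Umps, which completes the synthesis of uridine monophosphate, had 9.61, 12.9, 9.51 and 9.39 CPM in pretreated and 11.04, 8.19 and 10.7 in GalN/LPS livers, against 31.05, 29.3 and 31.4 in saline livers. All saline libraries were above the other 7. Umps fell by 1.62 ± 0.16 (adjusted p = 4.39e-07) in GalN/LPS relative to saline livers and differed by 0.06 ± 0.15 (adjusted p = 0.769) in pretreated relative to GalN/LPS livers. Slc35d1, which carries UDP-glucuronate into the endoplasmic reticulum, fell by 1.47 ± 0.25 (adjusted p = 0.000137) in GalN/LPS livers, at 56.3, 63.9 and 41.9 CPM against 132, 182 and 135 in saline livers. Ugdh, which makes UDP-glucuronate and was chosen after its values were seen, had 120.4, 72.9, 156 and 162 CPM in pretreated and 59.2, 71.8 and 55.4 in GalN/LPS livers, against 122, 197 and 159.5 in saline livers. The GalN/LPS libraries were the lowest. It fell by 1.36 ± 0.25 (adjusted p = 0.00022) in GalN/LPS relative to saline livers and rose by 1.04 ± 0.23 (adjusted p = 0.00175) in pretreated relative to GalN/LPS livers.

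Of the 10 tested genes of sulfate donor supply, 2 rose and 2 fell in GalN/LPS relative to saline livers, with a median of -0.23 (1 rose and 4 fell with totals), and 5 rose and 1 fell in pretreated relative to GalN/LPS livers, with a median of 0.44 (2 rose and 1 fell with totals). Slc26a1, a hepatocyte sulfate transporter, had 63.3, 59.4, 37.5 and 32.4 CPM in pretreated and 38.7, 33.7 and 35.2 in GalN/LPS livers, against 139, 128 and 174 in saline livers, with all saline libraries above the other 7. It fell by 2.03 ± 0.22 (adjusted p = 1.42e-06) in GalN/LPS relative to saline livers. Papss2, which makes PAPS, had 143, 135, 199 and 199 CPM in pretreated against 77.02, 94.7 and 64.7 CPM in GalN/LPS livers, without overlap. It rose by 1.10 ± 0.21 (adjusted p = 0.000575), and with totals the value was 0.59, adjusted p = 0.0134. Slc35b2, a PAPS carrier, fell by 0.99 ± 0.12 (adjusted p = 4.19e-06) in GalN/LPS relative to saline livers, and Bpnt1, which clears the spent donor, rose by 0.68 ± 0.13 (adjusted p = 0.000601) in pretreated relative to GalN/LPS livers, with totals 0.18, adjusted p = 0.181.

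Of 21 genes of glutathione supply and recycling, 6 rose and 6 fell in GalN/LPS relative to saline livers, with a median of 0.08 (6 rose and 8 fell with totals), and 9 rose and 3 fell in pretreated relative to GalN/LPS livers, with a median of 0.28 (1 rose and 6 fell with totals). Over all genes 27.4% rose and 25.6% fell in the first comparison and 24.4% rose and 30.1% fell in the second, and the counts of the list in the first are close to those shares. Slc7a11, the cystine importer, had 0.873, 0.683, 0.334 and 0.254 CPM in pretreated and 11.9, 6.05 and 6.86 in GalN/LPS livers, without overlap, and 0 counts in every saline library. It fell by 3.91 ± 0.41 (adjusted p = 1.37e-05) in pretreated relative to GalN/LPS livers. Ggt6, of the gamma-glutamyltransferase family, fell by 2.56 ± 0.37 (adjusted p = 2.94e-05) in GalN/LPS relative to saline livers, and Mat1a, which makes S-adenosylmethionine in hepatocytes, rose by 1.34 ± 0.25 (adjusted p = 0.000484) in pretreated relative to GalN/LPS livers. Of 9 tested genes of other glutathione transferase families, 4 rose and 0 fell in GalN/LPS relative to saline livers, with a median of 0.31 (4 rose and 0 fell with totals), and 4 rose and 4 fell in pretreated relative to GalN/LPS livers, with a median of -0.97 (0 rose and 5 fell with totals). Alox5ap, the activating protein of leukotriene synthesis in leukocytes, had 4.92, 6.08, 4.42 and 4.91 CPM in pretreated and 8.86, 9.14 and 12.1 in GalN/LPS livers, against 0.734, 0.698 and 1.06 in saline livers. It rose by 3.59 ± 0.32 (adjusted p = 1.41e-07) in GalN/LPS relative to saline livers, and the neutrophil marker sums given above were in the same order of groups, their part not being tested. Clic1 and Clic4, chloride channel proteins with a transferase fold, rose by 2.27 ± 0.18 (adjusted p = 4.71e-08) and 2.91 ± 0.30 (adjusted p = 8.58e-07) in GalN/LPS relative to saline livers.

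The 22 genes listed for other conjugation reactions also include Ephx1, Ephx2, Nqo1 and Tst, whose products are not conjugating enzymes. Of the 22 genes, 2 rose and 11 fell in GalN/LPS relative to saline livers, with a median of -0.30 (1 rose and 12 fell with totals). In pretreated relative to GalN/LPS livers 18 rose and 0 fell, with a median of 0.84 (7 rose and 0 fell with totals). Nat2, an arylamine acetyltransferase, had 3.97, 3.28, 4.84 and 3.47 CPM in pretreated and 1.86, 1.58 and 3.23 in GalN/LPS livers, against 15.4, 18.1 and 15.9 in saline livers, and the saline libraries were the highest. It fell by 2.87 ± 0.23 (adjusted p = 4.27e-08) in GalN/LPS relative to saline livers. Baat, which joins bile acids to taurine or glycine, had 168, 151, 204 and 193 CPM in pretreated and 80.3, 94.9 and 71.2 in GalN/LPS livers, against 218, 193 and 220.3 in saline livers. The GalN/LPS libraries were the lowest. Baat fell by 1.36 ± 0.15 (adjusted p = 1.35e-06) in GalN/LPS relative to saline livers and rose by 1.13 ± 0.14 (adjusted p = 2.59e-05) in pretreated relative to GalN/LPS livers, with totals 0.62, adjusted p = 0.000287. Tpmt, the thiopurine methyltransferase, rose by 0.97 ± 0.10 (adjusted p = 9.16e-06) in pretreated relative to GalN/LPS livers.

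Of 9 tested genes whose products hydrolyse conjugates or activate such enzymes, 4 rose and 2 fell in GalN/LPS relative to saline livers, with a median of 0.26 (1 rose and 2 fell with totals), and 7 rose and 0 fell in pretreated relative to GalN/LPS livers, with a median of 0.52 (1 rose and 0 fell with totals). Arsb, a lysosomal sulfatase, rose by 1.21 ± 0.16 (adjusted p = 4.83e-05) and Sumf1, which activates sulfatases, rose by 0.68 ± 0.12 (adjusted p = 0.000343), both in pretreated relative to GalN/LPS livers. With totals 1 gene of this list rose, so these rises did not both pass. Arsg, another sulfatase, fell by 1.27 ± 0.19 (adjusted p = 4.32e-05) and Sumf2 fell by 1.15 ± 0.28 (adjusted p = 0.00269), both in GalN/LPS relative to saline livers. Of 11 genes of conjugate export, 7 rose and 1 fell in GalN/LPS relative to saline livers, with a median of 0.95 (6 rose and 1 fell with totals), and 5 rose and 3 fell in pretreated relative to GalN/LPS livers, with a median of 0.09 (1 rose and 4 fell with totals). Abcc1, an exporter of glutathione conjugates, had 3.25, 6.08, 3.42 and 3.38 CPM in pretreated and 12.4, 10.3 and 14.96 in GalN/LPS livers, against 1.42, 0.797 and 1.10 in saline livers. The 3 ranges did not overlap. It rose by 3.49 ± 0.30 (adjusted p = 1.25e-07) in GalN/LPS relative to saline livers and fell by 1.63 ± 0.25 (adjusted p = 0.000133) in pretreated relative to GalN/LPS livers. The 10 Kupffer cell and macrophage markers summed to 319.9 to 507 CPM in pretreated, 702 to 1055 in GalN/LPS and 164 to 202 in saline libraries, and their part in the Abcc1 result was not tested. Rdx, which anchors canalicular exporters, fell by 1.03 ± 0.13 (adjusted p = 9.61e-06) in GalN/LPS relative to saline livers. Abcg2, a canalicular exporter, rose by 0.76 ± 0.15 (adjusted p = 0.000721) in pretreated relative to GalN/LPS livers, with totals 0.26, adjusted p = 0.144.

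Transcripts of regulators known to act on these gene families were more often lower than higher after GalN/LPS. Of 23 tested, 3 rose and 13 fell in GalN/LPS relative to saline livers, with a median of -0.75 (3 rose and 14 fell with totals), and 3 rose and 14 fell in pretreated relative to GalN/LPS livers, with a median of -0.63 (0 rose and 17 fell with totals). In pretreated relative to saline livers 2 rose and 17 fell (1 rose and 20 fell with totals). Over all genes the share that fell was 25.6% in GalN/LPS relative to saline livers (30% with totals), 30.1% in pretreated relative to GalN/LPS livers and 30.2% in pretreated relative to saline livers (47.6% with totals in each of these 2). Nr1h4, the bile acid receptor FXR, had 35.6, 31.4, 35.9 and 38.9 CPM in pretreated and 23.6, 22.6 and 20.5 in GalN/LPS livers, against 141, 159 and 115 in saline livers, and fell by 2.63 ± 0.14 (adjusted p = 6.92e-10) in GalN/LPS relative to saline livers. Nfe2l2, encoding NRF2, the activator of antioxidant response genes, had 19.7, 26.5, 24.1 and 26.98 CPM in pretreated and 92.8, 60.9 and 79.1 in GalN/LPS livers, against 32.6, 48.03 and 36.1 in saline livers. The GalN/LPS libraries were the highest and the pretreated ones the lowest. It rose by 1.00 ± 0.18 (adjusted p = 0.000268) in GalN/LPS relative to saline livers and fell by 1.67 ± 0.17 (adjusted p = 6.68e-06) in pretreated relative to GalN/LPS livers. Cebpb, an acute-phase factor, fell by 1.60 ± 0.19 (adjusted p = 1.60e-05) in pretreated relative to GalN/LPS livers. These are mRNA levels, and the activity of the factors was not measured.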

How the data were processed

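Liver mRNA libraries were prepared with NEBNext Ultra reagents from 1 µg of RNA, per the labels' protocols. Reads were aligned with HISAT2 to GRCm38 (mm10), per the submitters' processing notes, and no source used here gives the counting tool, the annotation release or the handling of strand. The authors deposited whole-number read counts per gene, 1 column per library. The authors also deposited FPKM values, whose per-library denominators ran from 0.706 to 1.28 times the column totals of the counts and so carry a scaling of their own, close to the TMM factors. The ALF columns were assigned to GalN/LPS because no other labelled group remained for them.

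Counts of all 13 libraries were fitted in 1 model with edgeR 4.0.16 (quasi-likelihood F test, TMM, filterByExpr by group, R 4.3.3), two-sided, with Benjamini-Hochberg adjustment over 14280 tested genes, which hold 99.92% of counts, at 0.05. Comparisons were pretreated or dmPGE2 or GalN/LPS over saline, pretreated over GalN/LPS, and the interaction. CPM used TMM-scaled library sizes. The scripts were tested on simulated data. No 2 libraries of a group agreed within sampling noise.

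The members, gene lists and rules were chosen with earlier results of these data known. Genes named in full are, per family, the one with the highest saline FPKM, and per comparison the 4 highest and 4 lowest called members that average 5 CPM or more in whichever group is higher, and, from each pathway list, the 2 with the smallest adjusted p in GalN/LPS over saline and the 2 in pretreated over GalN/LPS. Other genes are named for range, role or level, and a gene that the rule names is not reported here. Alternatives were library totals, DESeq2 size factors, DESeq2 1.42.0, no filter, a replicate block, limma 3.58.1 on log2(FPKM + 1) and log2(FPKM + 0.1), and leaving out each library. Without strand information, reads of Sult1a1, Gsto1, Gsta3 and Gstm5 cannot be told apart from those of overlapping antisense genes. For Gstm5 the antisense gene had 295 counts against 2412. Promoter sequences are from RefSeq (GRCm38.p6), and shared 50-base windows were counted over GENCODE transcripts.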

Additional observations from a re-analysis of the deposited data

Results flagged for a closer look

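Among 54 sets of 4 pretreated values, 5 had 1 library far from the other 3 (a gap above Dixon's critical value at 95%), and chance gives about 1 in 20. Ugt1a7c was at 2.30 CPM in pretreated replicate 1, against 0.423, 0.667 and 0.683 CPM in the other 3. Gstm7 was at 93.8 CPM in pretreated replicate 2, against 104, 104 and 106 CPM in the other 3. As a share of the FPKM of all genes, the 44 members reached 1.64% and the GSTA genes 0.104% in pretreated replicate 3, and the SULT genes reached 0.129% in pretreated replicate 4, each the highest of its 4.

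For 24 of the 44 members the interaction (the dmPGE2 difference with GalN/LPS minus that without) passed edgeR's test with Benjamini-Hochberg adjustment. It passed for 35% of all genes tested. The calls of Ugt2b5, Ugt2b34, Ugt2b35, Ugt2b36, Ugt2b37, Ugt1a7c, Sult1a1, Sult1c2, Sult1d1 and Gstt3 were lost when some single library was left out. The interaction on the log2 scale was 2.17 for Gstp2 (adjusted p = 0.0108), 1.78 for Gstm3 (adjusted p = 0.00656), 1.48 for Gstm1 (adjusted p = 0.0152), 1.38 for Gstm6 (adjusted p = 0.00532) and 1.28 for Gstm2 (adjusted p = 0.0039). It was 1.28 for Gsta3 (adjusted p = 0.00748), 1.24 for Sult1c2 (adjusted p = 0.0458), 1.20 for Gstm7 (adjusted p = 0.00313), 1.20 for Gstm4 (adjusted p = 0.0102), 1.19 for Gsta4 (adjusted p = 0.0118) and 1.19 for Gstp1 (adjusted p = 0.00464). Next came 1.13 for Gstp3 (adjusted p = 0.00105), 1.09 for Ugt2b35 (adjusted p = 0.0341), 1.03 for Ugt2b5 (adjusted p = 0.0333), 1.009 for Ugt2b36 (adjusted p = 0.0201), 0.93 for Gstt3 (adjusted p = 0.0405) and 0.90 for Sult1d1 (adjusted p = 0.0266). The other 7 values were 0.89 for Ugt2b34 (adjusted p = 0.0298), 0.88 for Gstt1 (adjusted p = 0.00791), 0.87 for Gsto1 (adjusted p = 0.0115), 0.86 for Gstk1 (adjusted p = 0.00983), 0.84 for Ugt2b37 (adjusted p = 0.036), 0.82 for Sult1a1 (adjusted p = 0.0366) and -3.35 for Ugt1a7c (adjusted p = 0.0393). With library totals Gsta3, Gstm3, Gstm6, Gstm7 and Ugt1a7c passed among these 24.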

How the results depend on the processing

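No called value of a member or of a pathway gene named by the rule changed direction under any alternative, except Ugt2b36 (-0.0842) and Ugt2a3 (-0.0150) in pretreated over saline livers with library totals. With library totals in place of TMM, members higher and lower numbered 2 and 4 in GalN/LPS over saline, 14 and 1 in pretreated over GalN/LPS, 19 and 2 in pretreated over saline and 4 and 1 in the interaction, so that the higher share of GalN/LPS over saline calls was 33.33% in place of 83.33%, and of interaction calls 80% in place of 95.83%. Without the filter on low counts, 5 members fell in GalN/LPS over saline, as did 4272 of all genes with a count. In dmPGE2 over saline 3 members rose and 2 fell, with 290 of all genes higher and 171 lower. DESeq2 called 1 member higher there, with 137 of all genes higher and 150 lower. With limma on log2(FPKM + 1), 6 members rose and 1 fell in GalN/LPS over saline, against 3858 and 3767 of all genes. It gave 0 members lower in pretreated over GalN/LPS and in the interaction, against 4552 and 3306 of all genes. On log2(FPKM + 0.1), 6 members rose in GalN/LPS over saline and 0 fell in the interaction, against 3836 and 3134 of all genes. The cause was not tested.

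With a replicate block 4 members rose in GalN/LPS over saline, 0 fell in pretreated over GalN/LPS, and 15 were above 0 and 0 below in the interaction. Of all genes, 3714 rose in the first, 3715 fell in the second, and 1558 were above 0 and 2153 below in the interaction. Of 18 same-number correlations between groups 0 were over 0.1 (-0.315 to 0.0873), against 4 of 45 with different numbers, and 3 of 13 libraries correlated best with their own number. These correlations showed no positive pairing by number. They are of deviations from the means of small groups and so depend on each other, and they cannot exclude a pairing.

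Leaving out 1 library gave 3 (without GalN/LPS replicate 2) to 15 (without GalN/LPS replicate 3) higher and 1 to 3 lower in GalN/LPS over saline, 25 to 35 higher and 0 to 1 lower in pretreated over GalN/LPS, 31 to 37 higher and 1 lower in pretreated over saline, 14 (without GalN/LPS replicate 1) to 29 higher and 0 to 1 lower in the interaction, and 0 in dmPGE2 over saline. Calls lost when some single library was left out numbered 8 of 12 in GalN/LPS over saline, 11 of 33 in pretreated over GalN/LPS, 4 of 36 in pretreated over saline and 10 of 24 in the interaction. Of 252 results of members and pathway genes 137 were past the threshold, and of these 66 missed it with library totals, 24 with the block, 14 and 11 with limma on log2(FPKM + 1) and log2(FPKM + 0.1), 4 without the filter, 2 with DESeq2 size factors and 1 with DESeq2. Depth limits Ugt1a6a, Ugt1a7c, Ugt1a10, Sult2a7 and Sult1e1 most.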
